A study of Mus musculus with 10 samples.

Results

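The genes described here are 10 components of the transforming growth factor beta (TGF-beta) pathway, taken as a named list from the 53715 genes counted in microglia of the mouse midbrain and striatum. They comprise the ligand Tgfb1, the latency proteins Nrros (listed under its older name Lrrc33) and Ltbp1, the receptors Tgfbr1 and Tgfbr2, the signal transducers Smad2, Smad3 and Smad4, and the inhibitors Smad7 and Ski. Microglia were isolated from untreated male C57BL/6 mice (C57BL/6 J in the study's methods) aged 3 months by papain digestion, a Percoll gradient and magnetic beads against CD11b, a surface protein of myeloid cells, and their poly-A RNA was sequenced in bulk with a MARS-seq protocol, which reads the 3′ ends of transcripts. Every group was of this strain, age and untreated state, and the groups differed in brain region and experiment. Exp 1, the pilot, and Exp 2 each gave 2 midbrain (Mdb) and 2 striatum (Str) libraries whose labels name a single region, which makes 8 libraries of 10. The other 2 libraries of Exp 2 carry labels that name both regions and entered no comparison. Both regions were taken from the same mice, 1 mouse for every 2 of the 10 libraries. Which midbrain and striatum libraries share a mouse is not given in the sources used here, so the animal did not enter the fits, and p-values measure the spread between libraries, part of which may be technical.

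TGF-beta is secreted as a latent complex that must be released before it can bind. On microglia, the transmembrane protein made from Nrros holds the latent ligand and permits its local activation by integrins. The released ligand joins the receptors TGFBR2 and TGFBR1, TGFBR1 phosphorylates SMAD2 and SMAD3, and these enter the nucleus with SMAD4, while SMAD7 and SKI restrain the signal. Microglia need this pathway to keep their homeostatic gene programme, which includes P2ry12, Tmem119, Sall1 and Olfml3.

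Counts per assigned library ranged from 575709 to 8463782, and the smallest total was that of replicate 3 of the Exp 2 striatum. All 10 microglial markers looked up were detected in each group, led by Csf1r and Tmem119, and their summed level was 11701 to 13233 CPM (counts relative to the library total, scaled by trimmed mean of M-values, TMM) in the midbrain against 16697 to 18962 CPM in the striatum in Exp 1, and 13392 to 15068 CPM against 18317 to 22282 CPM in Exp 2. Markers of border macrophages, led by Pf4 and Stab1, moved the other way, with 1977 to 2365 CPM in the midbrain against 1004 to 1484 CPM in the striatum in Exp 1, and 2650 to 3186 CPM against 622 to 714 CPM in Exp 2. All 10 of these were higher in the midbrain in the joint fit over both experiments (median log2 fold change of 1.55, 6 with an adjusted p under 0.05 from limma), as were all 10 monocyte markers (median 1.89, 2 called), all 10 neutrophil markers (median 2.02, 5 called) and all 6 T and NK cell markers that were tested (median 1.92, 1 called). Of 11 genes induced by tissue dissociation 10 were higher in the midbrain (median 0.64, 1 called). Their median was 0.12 in Exp 1, where the summed levels of the regions overlapped, and 1.04 in Exp 2. The 10 microglial markers were all lower in the midbrain, with a median of −0.62 and 2 called. Of all genes, 0.975% were called higher in the midbrain in the joint fit and 0.0854% lower. In bulk RNA, fewer cells of a type and less RNA per cell cannot be told apart, and the part of these marker differences in the results below was not tested.

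Promoter sequences from RefSeq (GRCm38.p6) were used for 7 of the 10 members. Those of Smad2, Smad4 and Smad7 were not included. The windows below are the 250 bases before the annotated start of the ligand gene, of the gene of its anchor on microglia and of both receptor genes, which are the members that provide, hold and receive the ligand. They are written 5′ to 3′ on the strand of the gene, with capitals for the motif CAGAC or its reverse complement GTCTG, the core of a Smad binding element.

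Tgfb1, chr7:25686752-25687001, plus strand: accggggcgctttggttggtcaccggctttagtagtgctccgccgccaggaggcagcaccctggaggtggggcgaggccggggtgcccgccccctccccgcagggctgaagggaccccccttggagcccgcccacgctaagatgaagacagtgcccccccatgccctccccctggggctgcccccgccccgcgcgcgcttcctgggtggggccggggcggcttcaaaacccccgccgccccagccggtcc

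Nrros, chr16:32165595-32165844, minus strand: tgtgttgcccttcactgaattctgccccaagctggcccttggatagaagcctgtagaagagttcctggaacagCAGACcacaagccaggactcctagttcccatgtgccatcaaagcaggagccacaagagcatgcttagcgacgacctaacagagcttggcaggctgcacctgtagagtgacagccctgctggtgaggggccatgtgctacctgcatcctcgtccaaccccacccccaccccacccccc

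Tgfbr1, chr4:47352972-47353221, plus strand: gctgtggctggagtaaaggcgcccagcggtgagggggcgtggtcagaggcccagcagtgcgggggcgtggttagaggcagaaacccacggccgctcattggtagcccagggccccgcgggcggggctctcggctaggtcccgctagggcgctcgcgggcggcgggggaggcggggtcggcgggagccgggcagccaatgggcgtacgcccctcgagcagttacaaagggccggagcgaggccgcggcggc

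Tgfbr2, chr9:116175364-116175613, minus strand: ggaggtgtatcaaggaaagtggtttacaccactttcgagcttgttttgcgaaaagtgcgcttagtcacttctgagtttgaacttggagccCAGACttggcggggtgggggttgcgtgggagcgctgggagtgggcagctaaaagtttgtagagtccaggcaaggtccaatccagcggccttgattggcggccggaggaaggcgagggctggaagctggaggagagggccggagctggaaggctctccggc

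CAGAC occurred once each in the windows of Nrros (beginning 177 bases before the start) and Tgfbr2 (160 bases before), and not in those of Tgfb1 and the first start of Tgfbr1. The window of a second annotated start of Tgfbr1 (chr4:47385966-47386215) held it 203 bases before that start. Among all 32851 windows of this length 42.2% held it, so its presence does not set these genes apart. The windows of Tgfb1 and Tgfbr1 consisted of 75.2% and 74.8% G and C, against 58.4% in both Nrros and Tgfbr2. The GC box GGGCGG, which Sp1 binds, was found on either strand 5 times in Tgfb1 and 2 times in Tgfbr1, and in 32.7% of all windows. The palindromic Smad motif GGCGCC was in Tgfbr1 alone of these 4 windows (9.59% of all windows). GAGGAAGT, a sequence bound by the myeloid factor PU.1, and TGANTCA, the AP-1 site, were in none of the 4, and in 2.44% and 6.75% of all windows.

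Tgfb1 (ENSMUSG00000002603.15, chr7:25687002-25705077 of GRCm38) encodes TGF-beta 1. It reached 178 and 171 CPM in the midbrain libraries of Exp 1 against 174 and 157 CPM in the striatum, and 148 and 116 CPM against 107 and 139 CPM in Exp 2. The regions overlapped in both experiments. The log2 fold change of midbrain over striatum in the joint fit, which covered the 8 libraries with the experiment as a covariate, was 0.14 (SE, the standard error, 0.15, 95% confidence interval −0.17 to 0.46, limma adjusted p of 0.693).

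Nrros (ENSMUSG00000052384.13, chr16:32142785-32165594) reached 451 and 375 CPM in the midbrain libraries of Exp 1 against 330.1 and 369 CPM in the striatum, and 368 and 293 CPM against 218 and 239.9 CPM in Exp 2. Both midbrain libraries exceeded both striatum libraries within either experiment, by a narrow margin in Exp 1. Across all genes of the joint fit, 8.28% had this pattern of higher midbrain libraries without overlap in both experiments. The joint log2 fold change was 0.39 (SE 0.14, 95% confidence interval 0.09 to 0.68), and its unadjusted p of 0.0151 became 0.215 after Benjamini-Hochberg adjustment over 14053 genes (limma). With the 2 unassigned libraries placed by file name it was 0.21 (limma adjusted p of 0.463), and 0.38 with placement by title.

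Ltbp1 (ENSMUSG00000001870.15, chr17:75005568-75392512) encodes the latent TGF-beta binding protein that ties the ligand to the extracellular matrix. It was close to the detection limit. The libraries held 7 and 5 counts in the midbrain and 4 and 1 in the striatum of Exp 1, and 2 and 2 in the midbrain and 0 and 0 in the striatum of Exp 2. A floor of 3 counts stood for 0.373 CPM at the greatest depth and 4.96 CPM at the smallest, with counting error alone considered. Ltbp1 was the member left out by the filter on low counts, so 9 of the 10 members were tested, and no regional difference of Ltbp1 could be assessed at this depth.

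Tgfbr1 (ENSMUSG00000007613.15, chr4:47353222-47414931) encodes the type I receptor, the kinase that activates SMAD2 and SMAD3. It was found with 554 and 553 CPM in the midbrain libraries of Exp 1 against 809.9 and 804 CPM in the striatum, and 667 and 1062 CPM against 1138 and 1762 CPM in Exp 2. Each midbrain library was below each striatum library of its experiment, closely replicated in Exp 1 and widely spread in Exp 2. Of all genes, 6.04% were lower in the midbrain without overlap in both experiments. The log2 fold change was −0.53 in Exp 1 (SE 0.17, unadjusted p = 0.0120, limma adjusted p of 0.393) and −0.79 in Exp 2 (SE 0.30, unadjusted p = 0.0239, limma adjusted p of 0.380). In the joint fit it was −0.63 (SE 0.18, 95% confidence interval −1.02 to −0.24), with an unadjusted p of 0.00452 and an adjusted p of 0.124 from limma. Without replicate 3 of the Exp 2 striatum the joint value was −0.50 (limma adjusted p of 0.311). Placing the 2 unassigned libraries by title gave −0.22 (limma adjusted p of 0.930) and placing them by file name gave −0.85 (limma adjusted p of 0.0246). The replicate number of the titles was also used as a block, although no source says that it marks a mouse. The joint value was then −0.64 (limma adjusted p of 0.0274) and that of Exp 2 was −0.82 (limma unadjusted p = 0.000781). The file names number Exp 2 otherwise and pair midbrain replicate 3 with striatum replicate 1. With that numbering as the block and the unassigned libraries placed by file name, Tgfbr1 was called in Exp 2. In the joint fit of that setting 0 members were called.

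Tgfbr2 (ENSMUSG00000032440.13, chr9:116084293-116175360) encodes the type II receptor, which binds the ligand first. It was measured at 192 CPM in both midbrain libraries and 231 and 365 CPM in the striatum libraries of Exp 1, and at 177 and 295 CPM in the midbrain and 244 and 371 CPM in the striatum of Exp 2. The regions were apart in Exp 1 and overlapped in Exp 2. The joint log2 fold change was −0.46 (SE 0.20, unadjusted p = 0.0397, limma adjusted p of 0.313).

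**Figure D1:**
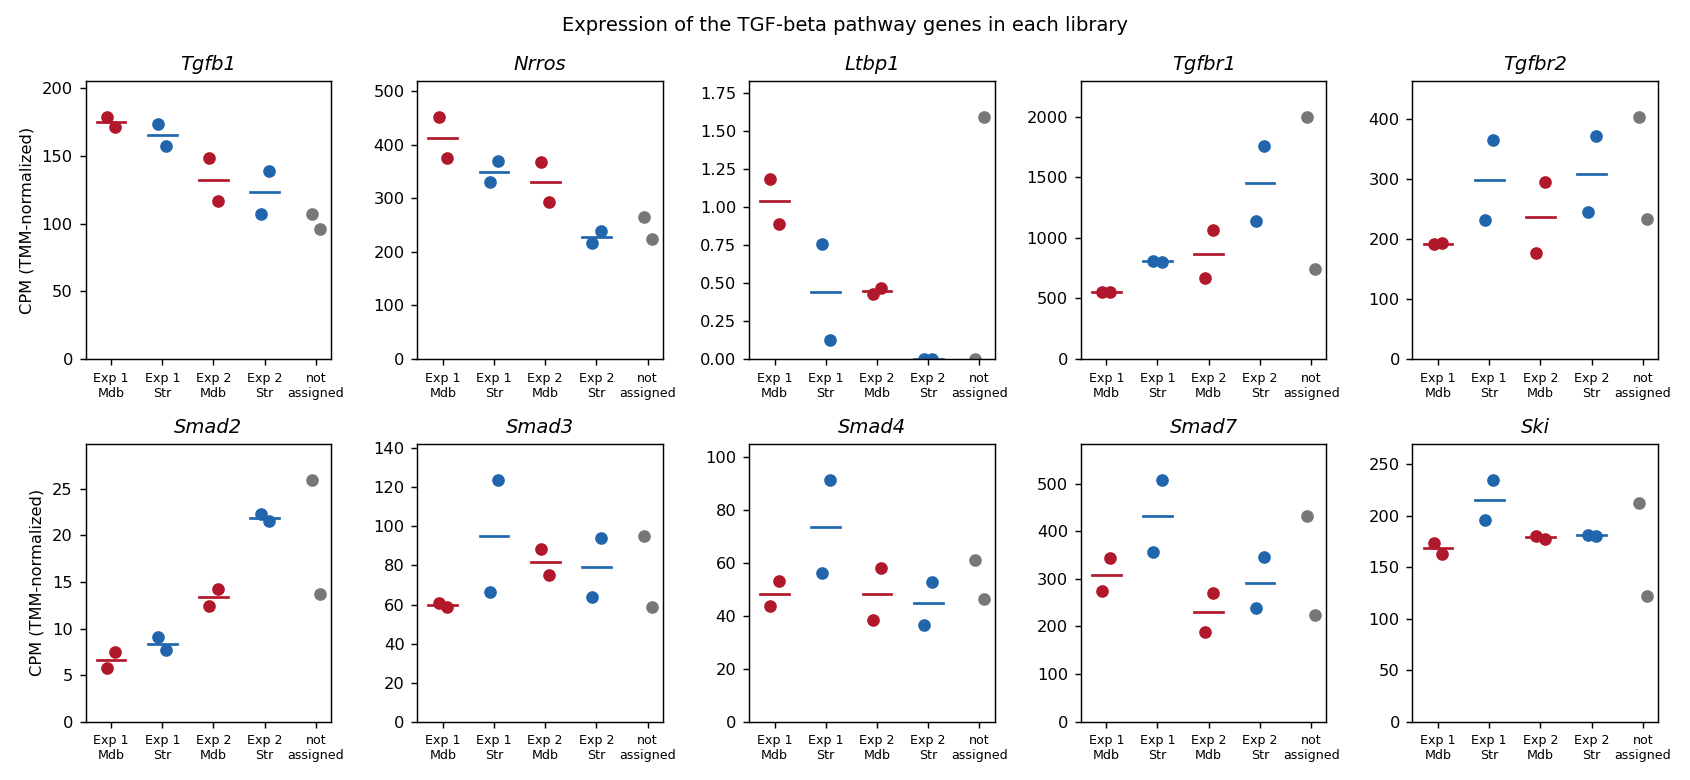
Expression of the 10 genes in each library, as CPM scaled by trimmed mean of M-values on the vertical axis, with libraries grouped along the horizontal axis by experiment and region (Mdb, midbrain; Str, striatum); points are libraries, horizontal lines are means of 2 libraries, and grey points are the 2 libraries whose labels name both regions. Tgfbr1 and Smad2 lie lower in the midbrain and Nrros lies higher within each experiment, and Ltbp1 stays at or below 1.59 CPM in all 10 libraries.

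Among the signal transducers, Smad2, one of the pair phosphorylated by TGFBR1, reached 5.76 and 7.48 CPM in the midbrain libraries of Exp 1 against 9.10 and 7.70 CPM in the striatum, and 12.4 and 14.3 CPM against 22.3 and 21.5 CPM in Exp 2. These levels rested on 13 to 62 counts per library. Midbrain libraries were below striatum libraries in both experiments, as for Tgfbr1 and 6.04% of all genes, but by a narrow margin in Exp 1. The joint log2 fold change was −0.52 (SE 0.25, 95% confidence interval −1.07 to 0.03, limma adjusted p of 0.370).

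Smad3, the other receptor-regulated Smad of this branch (ENSMUSG00000032402.12, chr9:63646767-63757994), reached 60.9 and 58.8 CPM in the midbrain libraries of Exp 1 against 66.3 and 124 CPM in the striatum, and 88.4 and 75.1 CPM against 63.7 and 94.3 CPM in Exp 2. The Exp 1 groups were apart, with striatum replicate 2 far above the rest, and the Exp 2 groups overlapped. Smad4, the partner shared by all Smad branches, reached 43.7 and 53.1 CPM in the midbrain libraries of Exp 1 against 56.1 and 91.5 CPM in the striatum, and 38.6 and 58.2 CPM against 36.7 and 52.9 CPM in Exp 2. It had the same pattern as Smad3, with the same library highest. The log2 fold changes of Smad3 were −0.60 in Exp 1 and 0.12 in Exp 2, and those of Smad4 were −0.58 and 0.16. The difference between the experiments was itself not called for Smad3 (0.71, SE 0.42, limma adjusted p of 0.861 for the interaction) or for Smad4 (0.71, SE 0.46, adjusted p = 0.865).

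Smad7, the inhibitory Smad that is also a target of the pathway, reached 274 and 344 CPM in the midbrain libraries of Exp 1 against 356 and 507 CPM in the striatum, and 189 and 270.2 CPM against 238 and 346 CPM in Exp 2. The joint log2 fold change was −0.38 (SE 0.18, 95% confidence interval −0.76 to 0.01, limma adjusted p of 0.355), and the regions overlapped in Exp 2. Ski (ENSMUSG00000029050.15, chr4:155154075-155222592), a nuclear corepressor of Smad complexes, was the steadiest of the 9 tested members. It reached 174 and 163 CPM in the midbrain libraries of Exp 1 against 196 and 234 CPM in the striatum, and 180.3 and 178 CPM against 182 and 180.3 CPM in Exp 2. Its highest library was 1.44-fold above its lowest, against 3.19-fold for Tgfbr1 and 3.88-fold for Smad2. Its joint log2 fold change was −0.19 (SE 0.13, 95% confidence interval −0.46 to 0.08, limma adjusted p of 0.526).

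Per kilobase of exonic length, the median level over the 8 libraries was 124 CPM for Tgfbr1, 83.5 for Nrros, 68.3 for Smad7, 32.4 for Ski, 30.3 for Tgfb1, 29.0 for Tgfbr2, 14.3 for Smad4, 12.8 for Smad3, 3.03 for Smad2 and 0.0428 for Ltbp1. Neighbours in this order overlapped in their ranges over the libraries, except that Smad3 (10.6 to 22.3 CPM per kilobase) was above Smad2 (1.62 to 6.29) and Smad2 above Ltbp1 (0 to 0.113) in all of them. On this scale the order of the first pair was turned in the midbrain of Exp 1. Nrros had 108 and 89.7 CPM per kilobase there, against 84.8 and 84.6 for Tgfbr1. Reads from 3′ ends do not grow in number with transcript length, so this scale is approximate and division by length can change the order. In CPM, Tgfbr1 was above Nrros in the same libraries, with 554 and 553 against 451 and 375 CPM. Median CPM also placed Tgfbr2 (237) above Ski (180) and Tgfb1 (153), and Smad3 (70.7) above Smad4 (53.0), unlike the order per kilobase.

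In the main fits, which had no replicate block, no member passed the limma test for a regional difference over the 8 assigned libraries. With the block 1 member, Tgfbr1, passed in Exp 2 and in the joint fit. Tgfbr1 also passed without a block in the joint fit with no filter on low counts (limma adjusted p of 0.0381). In Exp 1 it passed under several other settings, which are given in the section on processing. In Exp 1, 0 of the 9 tested members had an unadjusted p under 0.01 (limma), where 2.64% of 14972 genes did, and at an unadjusted p under 0.05 there were 2 members, Tgfbr1 and Tgfbr2 (10.9% of genes). In Exp 2, 0 members passed the same threshold, against 3.47% of 13486 genes, and 1, Tgfbr1, was under 0.05 (10.6%). In the joint fit 0 members had an adjusted p under 0.05, against 1.06% of 14053 genes, and 3, Tgfbr1, Nrros and Tgfbr2, had an unadjusted p under 0.05 (14.6%). The quasi-likelihood test of edgeR likewise called 0 members in each of these comparisons, with 4, 1 and 3 members at an unadjusted p under 0.05. DESeq2 called 1 in Exp 1, Tgfbr1, and 0 in the other comparisons, with the same 4, 1 and 3. Leaving out striatum replicate 1 raised the Exp 1 count to 6 (Tgfbr1, Tgfbr2, Smad3, Smad4, Smad7 and Ski), with 1 striatum library left that was assumed to vary like the midbrain, and 2445 of 14571 genes were then called. Without striatum replicate 2 the count was 1, Tgfbr1, and 610 of 14452 genes were called.

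In direction, 7 of the 9 tested members were lower in the midbrain and 2, Tgfb1 and Nrros, higher, with a median joint log2 fold change of −0.28. Among all genes 45.65% were lower and the median was 0.04. The median over the members was −0.45 in Exp 1 and −0.08 in Exp 2. None of the 9 differed between the experiments in the regional change at an adjusted p under 0.05, and 0 of all 14053 genes did (limma's interaction term). At an unadjusted p under 0.05 there were 0 members and 5.49% of genes, and edgeR and DESeq2 also called 0 members.

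**Figure D2:**
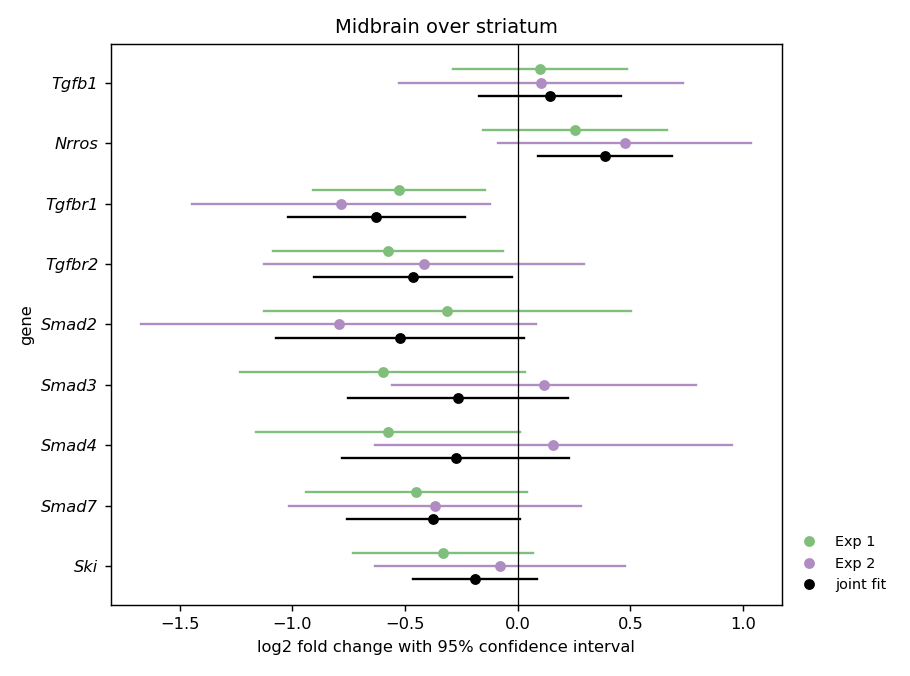
Log2 fold change of midbrain over striatum for the 9 tested genes (horizontal axis) in Exp 1, Exp 2 and the joint fit; points are limma estimates and lines are 95% confidence intervals. The intervals of Tgfbr1 lie below 0 in all 3 fits and that of Nrros lies above 0 in the joint fit (0.09 to 0.68), while Smad3 and Smad4 lie below 0 in Exp 1 and above it in Exp 2 with intervals that include 0.

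Because the summed microglial markers were themselves lower in the midbrain, the members were also set against them within each library. Per 1000 CPM of summed markers, Tgfbr1 amounted to 41.8 to 47.3 CPM in the midbrain against 42.4 to 48.5 CPM in the striatum in Exp 1, and to 49.8 to 70.5 CPM against 62.2 to 79.1 CPM in Exp 2. On this scale the regions overlapped for Tgfbr1 in both experiments. For Nrros the regions were apart, with 28.3 to 38.6 CPM per 1000 in the midbrain against 19.5 to 19.8 in the striatum of Exp 1, and 19.4 to 27.5 against 10.8 to 11.9 in Exp 2. Tgfb1 was also apart on it, with 12.95 to 15.2 against 8.29 to 10.4 in Exp 1 and 7.72 to 11.1 against 5.84 to 6.24 in Exp 2. Of all genes, 37.5% were higher in the midbrain without overlap in both experiments on this scale, and 0.299% were lower, so the position of Nrros and Tgfb1 is shared with a large part of the transcriptome. Border macrophages and leukocytes also transcribe several of the members, and the part of these cells in the members' values was not tested.

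More genes differed between the experiments than between the regions. With the region as a covariate, 10.5% of 14053 genes had an adjusted p under 0.05 between Exp 2 and Exp 1 (limma), and 2 of the 9 tested members were among them. Both were higher in Exp 2, as 4.71% of all genes were. Smad2 rose by 1.24 on the log2 scale (SE 0.25, limma adjusted p of 0.0153), with every Exp 2 library above every Exp 1 library. Tgfbr1 rose by 0.72 (SE 0.18, limma adjusted p of 0.0306), and with scaling to library size alone its adjusted p was 0.0579. Here the ranges of the experiments overlapped across regions but not within a region.

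At an unadjusted p under 0.05 there were 5 members (29.1% of genes), the other 3 being lower in Exp 2. Nrros had a log2 fold change of −0.45 (limma adjusted p of 0.0565), Tgfb1 of −0.44 (adjusted p = 0.0731) and Smad7 of −0.52 (adjusted p = 0.0813). For Tgfbr2 (0.14), Smad3 (0.10), Smad4 (−0.36) and Ski (−0.05) the 95% confidence intervals included 0. The number of called members depended on single libraries, since it was 0 without midbrain replicate 1 of Exp 1, where adjusted p was 0.102 for Tgfbr1 and 0.0765 for Smad2, and 1, Smad2, without midbrain replicate 2 or striatum replicate 1 of Exp 1 or without midbrain replicate 3 or striatum replicate 3 of Exp 2. Experiment and processing batch cannot be told apart here. Endothelial markers also differed, with 8 of 10 lower in Exp 2 at an adjusted p under 0.05 (median log2 fold change of −2.08, limma). Of the 10 genes in the monocyte list 5 were called higher, as were 6 of 10 neutrophil markers. Ly6a, also in the monocyte list, was called lower, against the other called genes of that list. Of the 10 microglial markers 7 were higher in Exp 2, the direction of Smad2 and Tgfbr1 (median 0.51), and 3 of them, P2ry12, Siglech and Cx3cr1, were called. Their part in the change of Smad2 and Tgfbr1 was not tested.

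**Figure D3:**
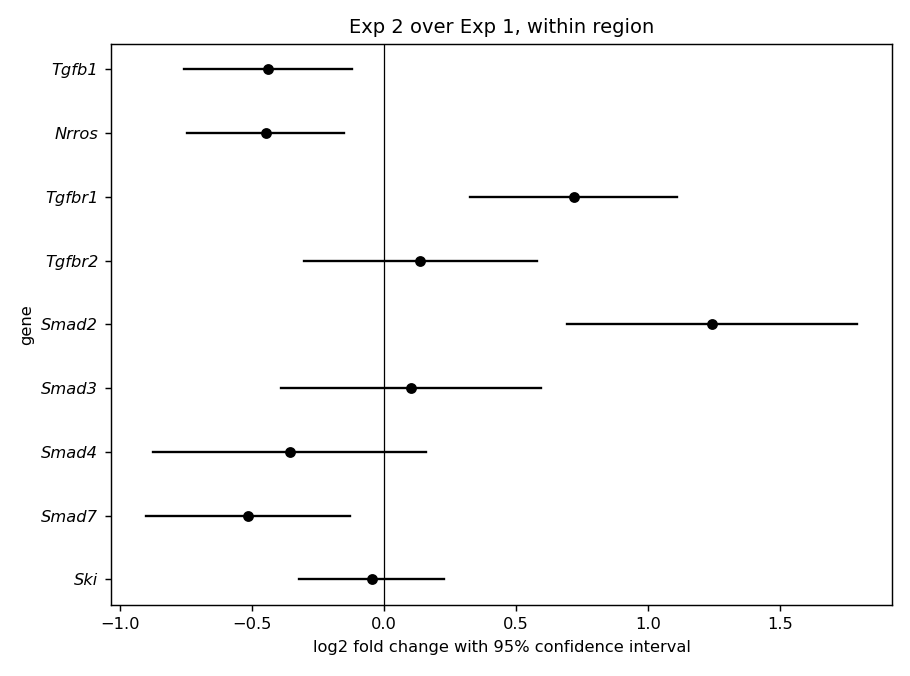
Log2 fold change of Exp 2 over Exp 1 within region for the 9 tested genes (horizontal axis), from the joint fit over 8 libraries; points are limma estimates and lines are 95% confidence intervals. Smad2 (1.24) and Tgfbr1 (0.72) lie above 0, and Tgfb1, Nrros and Smad7 lie below 0 with intervals that exclude it.

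Across the 8 libraries the log2 CPM of the members varied together in part. The highest of the 45 pairwise correlations was between Smad4 and Smad7 (Pearson's r of 0.89), followed by Tgfbr1 with Smad2 (0.86) and Tgfb1 with Nrros (0.82), and the lowest were Nrros with Smad2 (−0.94) and Nrros with Tgfbr1 (−0.88). These describe 8 points that share their region, experiment and depth, and part of each value comes from the group differences given above. Among the 7037 genes that had 10 or more counts in all 8 libraries, the pattern of Tgfb1 was most like those of Meg3 (r of 0.96), Ly6a (0.96) and Cnn3 (0.94). That of Tgfbr1 was most like those of Abca1 (0.99), which encodes a cholesterol exporter, Tmem230 (0.99) and B230219D22Rik (0.99).

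The wider pathway was described with 103 further genes in 9 lists, of which 96 were tested. In the joint fit 3 of the 96 had an adjusted p under 0.05 (limma), against 1.06% of all genes, 1 of them higher in the midbrain (0.975% of all genes) and 2 lower (0.0854%), and 34 had an unadjusted p under 0.05 (14.6% of all genes). Their median log2 fold change was 0.12. In both experiments separately, with a single direction at an unadjusted p under 0.01, 2 were called, Dab2 and Siglech (1.23% of the 13210 genes tested in both).

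Among the ligands 7 of 9 tested genes were higher in the midbrain (median log2 fold change of 0.68). Bmp2, a ligand of the related bone morphogenetic protein branch, was the one called. It reached 22.3 and 22.4 CPM in the midbrain libraries of Exp 1 against 8.72 and 7.33 CPM in the striatum, and 16.9 and 19.7 CPM against 4.32 and 8.27 CPM in Exp 2. All midbrain libraries were above all striatum libraries. Of all genes, 8.28% were higher in the midbrain without overlap in both experiments. Bmp2 rose by 1.605 (SE 0.25, limma adjusted p of 0.0181), although the shallowest striatum library held 5 counts. It was not called with thinned counts, with the unassigned libraries placed by title, or without midbrain replicate 1 or striatum replicate 1 of Exp 1 or either striatum library of Exp 2, and a minimum of 10 counts in every library removed it. The ligands Tgfb2 and Tgfb3 were low, at no more than 10.3 and 5.35 CPM, with joint log2 fold changes of 0.48 and 0.68 and adjusted p of 0.550 and 0.482 from limma.

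Latency and activation genes had a median of 0.14 over 12 tested genes, of which 0 were called. Thbs1, encoding thrombospondin 1, which can release latent TGF-beta, had a joint log2 fold change of 1.66 (SE 0.60, limma adjusted p of 0.221), and the integrin chains Itgb5 and Itgb3 had −0.31 and −0.37. The other receptors and coreceptors had a median of 0.02 over 9 genes with 0 called. Acvrl1, a type I receptor for bone morphogenetic proteins and, in endothelium, TGF-beta, had 0.68 (SE 0.16, limma adjusted p of 0.0699). The activin receptor gene Acvr1 had −0.83 and the coreceptor gene Tgfbr3 had 1.17, with adjusted p of 0.202 and 0.318 from limma.

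The remaining Smads and their anchors had a median of −0.12 over 7 genes. Dab2, an endocytic adaptor that binds TGF-beta receptors and SMAD proteins, was called within each experiment and reached 118 and 117 CPM in the midbrain libraries of Exp 1 against 44.2 and 76.5 CPM in the striatum, and 103 and 235 CPM against 22.3 and 36.4 CPM in Exp 2. It rose by 1.00 on the log2 scale in Exp 1 (unadjusted p = 0.00298) and by 2.55 in Exp 2 (unadjusted p = 0.000318), both from limma. Its joint change was 1.56 (SE 0.35, limma adjusted p of 0.0611). Dab2 is also abundant in border macrophages, whose summed markers moved in the same direction.

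Corepressors and inhibitors (median 0.14, 13 genes), nuclear partners (0.18, 10 genes) and the non-Smad branch (0.14, 7 genes) had 0 called genes in the joint fit. The gene with the smallest unadjusted p in each was Pmepa1, an inhibitor induced by TGF-beta, at −0.39 (limma adjusted p of 0.136), Runx3, a Smad-binding transcription factor, at 1.55 (adjusted p = 0.0531) and Map3k7, encoding the kinase TAK1, at 0.48 (adjusted p = 0.443). The further genes named from these lists were Usp15 (0.54), Trim33 (0.58), Mef2a (−0.45), Sp1 (0.74), Traf6 (0.29) and Mapk14 (0.14), given here as joint log2 fold changes.

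The target genes of the pathway fell on both sides of 0. Of 11 genes induced by TGF-beta in many cell types, 10 were higher in the midbrain, with a median joint log2 fold change of 0.58. In that fit 0 were called, and 6 had an unadjusted p under 0.05 from limma (14.6% of all genes). Ccn2 had 1.79, Tgfbi, encoding an extracellular matrix protein, 1.13, and Bhlhe40, a transcription factor, 1.34, with adjusted p of 0.0758, 0.0829 and 0.154 from limma. Ccn2 reached no more than 9.31 CPM, and Tgfbi rose by 1.91 in Exp 2 alone (limma adjusted p of 0.0187) with 0.49 in Exp 1 (adjusted p = 0.535).

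Of 18 genes whose expression in microglia is known to depend on TGF-beta, 16 were lower in the midbrain (45.65% of all genes). Their median was −0.59, and 14 had an unadjusted p under 0.05 from limma (14.6% of all genes). Olfml3 and Siglech were called, and 0.0854% of all genes were called lower. Olfml3, a secreted glycoprotein of homeostatic microglia, reached 1088 and 1126 CPM in the midbrain libraries of Exp 1 against 1653 and 1946 CPM in the striatum, and 1296 and 1619 CPM against 2208 and 2013 CPM in Exp 2. It fell by 0.62 in the midbrain (SE 0.12, limma adjusted p of 0.0367). Siglech, a sialic acid-binding receptor, reached 666 and 843 CPM in the midbrain libraries of Exp 1 against 1144 and 1513 CPM in the striatum, and 916 and 1464 CPM against 1949 and 2338 CPM in Exp 2. It fell by 0.84 (SE 0.17, limma adjusted p of 0.0417). As in 6.04% of all genes, the midbrain libraries of both genes were below the striatum libraries in each experiment. Neither was called with at least 10 counts in every library, with placement by title, or without either midbrain library or striatum replicate 1 of Exp 1 or either striatum library of Exp 2. Olfml3 was also not called by the quasi-likelihood test of edgeR, nor was Siglech without striatum replicate 2 of Exp 1 or midbrain replicate 1 of Exp 2. Several genes of this list also serve as the microglial markers given above, so it is not independent of them.

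**Figure D4:**
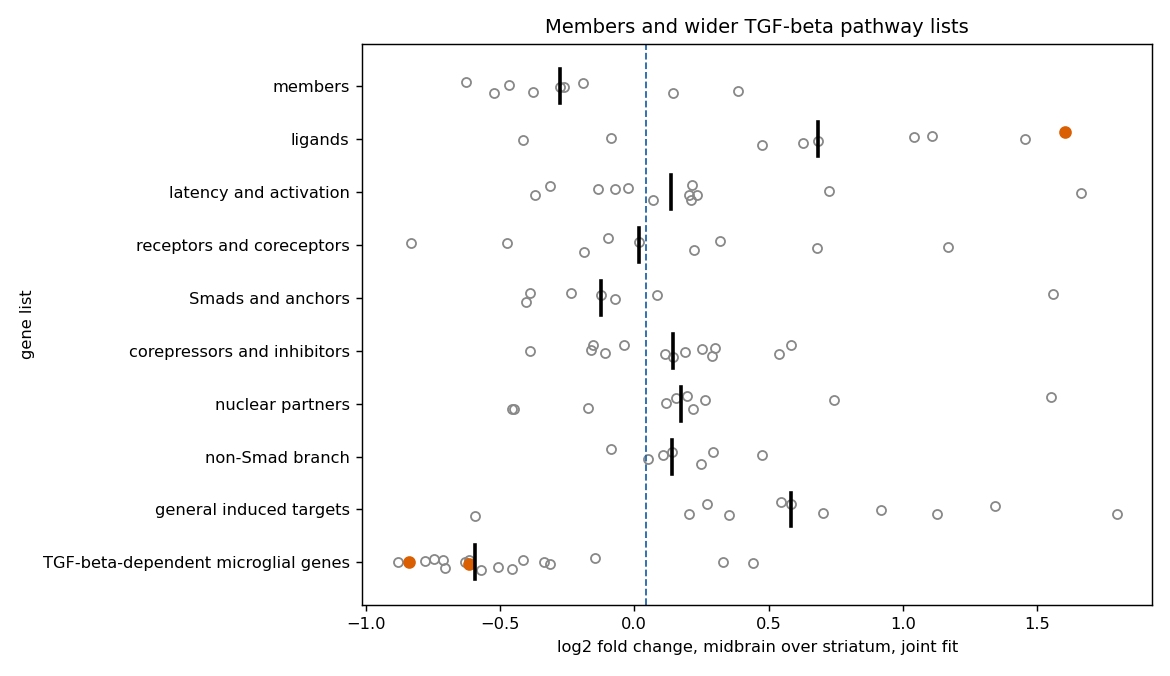
Joint log2 fold change of midbrain over striatum (horizontal axis) for the 9 tested members and the 9 wider lists of pathway genes; circles are genes, filled orange where the adjusted p from limma was under 0.05, short vertical lines are list medians, and the dashed line is the median of all genes (0.04). The members (median −0.28) lie mostly left of the dashed line, as do the TGF-beta-dependent microglial genes (−0.59), while ligands (0.68) and general induced targets (0.58) lie mostly right of it.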

How the data were processed

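Poly-A RNA of CD11b+ cells was sequenced in 10 bulk libraries. For the deposited files, the authors mapped reads to GRCm38 (STAR 2.5.3a) and made a raw count per gene over exons, without strand (featureCounts 1.6.0, both versions per the submitters' processing notes, with Gencode M17). Use of molecular identifiers is not given in the sources used here, so counts were treated as reads. No member's exons overlap those of another gene.

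Symbols were matched to 53620 gene identifiers, 51464 with their version and 2156 without. Regions and experiments came from the labels. In 2 libraries of Exp 2 the title and the file label name different regions, and they were left unassigned. Totals per assigned library differed 14.7-fold. A gene was dropped from a fit where more than 50% of its libraries held fewer than 6 counts. TMM factors came from edgeR (4.0.16). Fits over all genes used limma (3.58.1, R 4.3.3) through voom and eBayes, two-sided, per experiment (called at an unadjusted p under 0.01, the cutoff of the study's methods), jointly with the experiment as a covariate, and with an interaction of region and experiment (both called at a Benjamini-Hochberg adjusted p under 0.05). CPM values use TMM factors over all 10 libraries, and log2 CPM a prior count of 2. The procedure was tested on simulated data. The study's outlier detection was not repeated.

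The members and gene lists were chosen with earlier results of these data known. Named genes are all members, the 3 genes most correlated with Tgfb1 and with Tgfbr1 and, from each wider list, those called in the joint fit or in both experiments, otherwise up to 3 with the smallest p. Tgfb2, Tgfb3 and Ly6a were named in addition after their values were seen. Alternatives were DESeq2 (1.42.0), the quasi-likelihood test of edgeR, library size scaling, 3 other filters, a replicate block, quality weights, thinned counts, both placements of the unassigned libraries and leaving out each library.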

Additional observations from a re-analysis of the deposited data

Results flagged for a closer look

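The 2 libraries of Exp 2 whose labels name both regions entered no comparison, and 4 of their member values were above every assigned library. In the library titled as midbrain replicate 2, Tgfbr1 was at 1996 CPM against at most 1762 CPM in the 8 assigned libraries, Tgfbr2 at 402 CPM against 371 CPM, and Smad2 at 26.0 CPM against 22.3 CPM. In the library titled as striatum replicate 2, Ltbp1 was at 1.59 CPM (8 counts) against 1.18 CPM. There were no replicates for these values and they were not tested.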

How the results depend on the processing

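Of 603 log2 fold changes of members recomputed under the alternatives, 540 kept their direction and their side of the threshold, 33 passed it where they had not, 9 no longer passed and 21 changed sign. The direction was kept under all of them by Nrros and Tgfbr1 (both per experiment, in the joint fit and between experiments) and by Smad2.

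The member called in the joint fit under an alternative was Tgfbr1, making 1 with no filter, with the replicate block from the titles, and with the unassigned libraries placed by file name. In Exp 1, 1 member was called with DESeq2, library size scaling, the filter within each region and quality weights, and 2 with no filter. In Exp 2, 1 was called with the block and with placement by file name, with or without a block. Leaving out each library gave 0 to 6 in Exp 1, 0 to 1 in Exp 2 (1 without midbrain replicate 3) and 0 in the joint fit. Between experiments the count of 2 became 4 with library size scaling, quality weights and placement by file name, 5 with at least 10 counts in every library, 1 with thinned counts, 3 (Tgfb1, Nrros and Smad2) with placement by title, where Tgfbr1 had a limma adjusted p of 0.0966, and 0 to 3 leaving out each library. Library size scaling moved the median of all genes in this comparison from −0.02 to −0.13 and its calls from 662 higher of 1480 to 462 higher of 1681. The 3 wider pathway genes became 15 with DESeq2, 5 with library size scaling, 11 with no filter and with quality weights, 0 with at least 10 counts in every library and with placement by title, 12 with the block, 6 with thinned counts, 19 with placement by file name (12 with a block), and 0 to 6 leaving out each library, with 0 without midbrain replicate 1 or striatum replicate 1 of Exp 1 or without either striatum library of Exp 2, and 1, Bmp2, without midbrain replicate 2 of Exp 1. Genes called in the joint fit numbered 149, and 0 to 554 under the alternatives. The cause was not tested.

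Some signs changed. In Exp 2, Smad3 was −0.20 with thinned counts, −0.17 with placement by file name and −0.17 with the block added, and Smad4 −0.049 and −0.069 in the latter pair. Placement by title gave 0.012 for Tgfbr2, 0.11 for Smad7 and 0.26 for Ski in Exp 2, and 0.041 for Ski in the joint fit. Library size scaling gave −0.0062 for Smad3 between experiments. Leaving out each library gave −0.53 to 0.020 for Smad3 in the joint fit, −0.32 to 0.32 for Smad3, −0.28 to 0.49 for Smad4, −0.19 to 0.34 for Tgfb1 and −0.80 to 0.012 for Tgfbr2 in Exp 2, and −0.0063 to 0.40 for Smad3, −0.0061 to 0.34 for Tgfbr2 and −0.086 to 0.044 for Ski between experiments.

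Deviations of libraries with the same title number from their group means correlated at −0.034 in Exp 1 and 0.077 in Exp 2 over 14053 genes. Genes with few counts enter these values, so they cannot decide whether the numbers mark a mouse. The block of paired numbers gives the values above (1 member in Exp 2 and in the joint fit, 12 wider genes) without a known pairing. It changed the genes called from 395 to 401 in Exp 1, from 468 to 988 in Exp 2 and from 149 to 308 in the joint fit. It could not be fitted for Exp 2 against Exp 1, because each block lies within a single experiment, and the unassigned libraries do not enter Exp 1. Depth limits Ltbp1 and Smad2 most, at 0 to 7 and 13 to 62 counts per library.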
